A study of Homo sapiens with 4 samples.

Results

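Forkhead genes encode transcription factors that share the forkhead (winged helix) DNA-binding domain. The members were the protein-coding genes of GENCODE release 44 whose symbol is FOX followed by a letter and a number, 44 of 19626 coding genes on chromosomes 1 to 22 and X, with 1 further gene of such a symbol left out and not analysed here. Accessibility was profiled by ATAC-seq, where a transposase inserts sequencing adapters into exposed DNA, in MCF10A, a non-transformed human mammary epithelial line. Cells that carried tet-inducible TAZ-4SA, a constitutively active TAZ, were treated with 0.05 µg/mL doxycycline for 72 h (Dox) or left without it (No Dox), with 2 replicates per condition and 50000 cells per reaction. Both conditions carried the construct and cells without it were not analysed here, so doxycycline itself and TAZ-4SA cannot be told apart. The authors pooled the replicates of each condition before calling peaks, which left 1 peak list each. Replicates therefore had no measurable spread, and no p-value could be given.

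Forkhead factors bind a short core sequence, and some can bind it within closed chromatin. The family falls into lettered subfamilies: FOXO proteins are held in the cytoplasm by AKT downstream of insulin and growth factors, FOXM1 drives mitotic genes, FOXP proteins are mostly repressors, and FOXC, FOXF, FOXL and FOXQ genes act in mesoderm, mesenchyme and gut. TAZ does not bind DNA by itself and reaches it mainly through TEAD proteins.

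Both lists were read on the same scale of positions but not of height. Folds started at 2.71 in the Dox list (84321 peaks, median 4.07). In the No Dox list they started at 2.54 (117712 peaks, median 3.81). Fold here is the fold enrichment of a peak over the background of its own list, and the read depth of each condition is unknown here. Of 10 epithelial marker promoters, 8 had a peak in both lists, TP63 had one in Dox alone (fold 4.29) and KRT14 had none. Among leukocyte markers 5 of 8 had no promoter peak in either list, PTPRC included, and among endothelial markers 6 of 8 had none, PECAM1 and CDH5 included. The other leukocyte markers were CD14 (a peak in both lists), ITGAM (No Dox alone) and CD79A (Dox alone). The other endothelial markers, KDR and ESAM, had a peak in both lists. Over all coding genes 63.6% had a promoter peak in both lists and 26.7% had none.

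To show what the DNA of these regions looks like, sites of TEAD (ACATTCC or GCATTCC), AP-1 (TGACTCA) and forkhead factors (TGTTTAC or TGTTTAT) were sought on both strands within 100 bp of each summit, and sites of different kinds that share bases were all counted. In 4 members a Dox-only region (with a peak in the Dox list alone) shows what a TEAD site looks like. These windows of 41 bases are printed from the plus strand of hg38 with the site in capitals, and a site read on the minus strand appears as GGAATGT or GGAATGC. They lay at chr1:41317485-41317525 (44.3 kb upstream of FOXO6, in an intron of a gene with no symbol), chr3:71462207-71462247 (an intron of FOXP1), chr6:1271158-1271198 (40.7 kb upstream of FOXQ1, intergenic) and chr6:1481682-1481722 (downstream of FOXF2, intergenic).
FOXO6 TEAD: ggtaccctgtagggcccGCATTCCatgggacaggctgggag
FOXP1 TEAD: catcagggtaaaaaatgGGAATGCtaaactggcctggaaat
FOXQ1 TEAD: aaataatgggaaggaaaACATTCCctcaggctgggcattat
FOXF2 TEAD: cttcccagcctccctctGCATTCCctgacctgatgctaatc
The sites of FOXO6, FOXP1 and FOXQ1 lay 16, 5 and 9 bp from the summit, on its lower-coordinate side. The FOXF2 site lay 144 bp from the summit of its region and so outside the window used for counting.

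Regions seen in the No Dox list alone are illustrated by sites of AP-1 and of the forkhead core itself. The region of FOXN3 (chr14:89479881-89479981, an intron of the gene) held 2 AP-1 sites close to its summit. The FOXI1 window (chr5:170132860-170132900) was intergenic, and both FOXP2 windows (chr7:114095194-114095234 and chr7:114630547-114630587) lay in introns of FOXP2.
FOXN3 AP-1: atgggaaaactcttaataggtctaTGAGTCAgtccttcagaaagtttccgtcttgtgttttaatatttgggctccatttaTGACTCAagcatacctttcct
FOXI1 AP-1: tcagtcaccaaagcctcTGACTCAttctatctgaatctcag
FOXP2 AP-1: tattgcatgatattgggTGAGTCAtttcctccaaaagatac
FOXP2 forkhead: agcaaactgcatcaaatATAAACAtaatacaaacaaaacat
ATAAACA is the forkhead word TGTTTAT read on the other strand, and TGAGTCA is TGACTCA read on the other strand. The printed windows are a choice of examples, and neither kind of site was confined to a condition. TEAD sites also lay in regions of FOXB1, FOXJ3, FOXN2 and FOXP1 seen in the No Dox list alone. AP-1 sites also lay in Dox-only regions of FOXF2, FOXN3, FOXP1 and FOXS1. Counts over all regions are given below.

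Most forkhead promoters are rich in CpG, and the promoters are shown because presence or absence of a peak within 1 kb of a TSS was the first readout. The 150 bases before the RefSeq start (GRCh38.p14, gene strand) are printed with CpG in capitals for FOXE1 (chr9:97853076-97853225) and FOXL2 (chr3:138947138-138947287), which had a promoter peak in Dox alone, and for FOXR2 (chrX:55623250-55623399), which had none in either list.
FOXE1 promoter: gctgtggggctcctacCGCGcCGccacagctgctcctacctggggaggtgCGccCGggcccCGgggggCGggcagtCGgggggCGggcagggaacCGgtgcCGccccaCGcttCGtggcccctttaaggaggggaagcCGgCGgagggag
FOXL2 promoter: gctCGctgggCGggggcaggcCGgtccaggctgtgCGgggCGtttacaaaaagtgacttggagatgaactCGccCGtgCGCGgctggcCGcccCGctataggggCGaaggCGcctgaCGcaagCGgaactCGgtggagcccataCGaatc
FOXR2 promoter: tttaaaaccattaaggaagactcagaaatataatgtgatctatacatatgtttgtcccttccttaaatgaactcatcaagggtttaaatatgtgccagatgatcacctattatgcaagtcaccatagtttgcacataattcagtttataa
The stretches held 15 CpG for FOXE1, 17 for FOXL2 and 0 for FOXR2. Over the 1 kb around the canonical TSS, 37 of 44 members (84.1%) had a CpG observed over expected ratio above 0.6, against 66.7% of all coding genes, and the median GC content was 67.8% for members and 61.4% for all coding genes. The printed stretches are examples and do not mark off the promoter states. FOXR2 had the lowest ratio of the members (0.13), whereas FOXB1 (0.96) and FOXL3 (0.79) also had no promoter peak. With a Dox peak alone, FOXH1 (0.39) and FOXN1 (0.34) were poor in CpG, and the others with that state lay above 0.6.

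The first question was which forkhead promoters carried a peak in each condition. Of the 44 members, 27 (61.4%) had a promoter peak in both lists, where 63.6% of all coding genes did, and 8 (18.2%) had none, where 26.7% of all genes had none. A further 7 members (15.9%, 95% interval 6.64 to 30.1%) had one in Dox alone, where 5.75% of all genes did, and 2 (4.55%, 0.555 to 15.5%) had one in No Dox alone, where 3.98% of all genes did. Counted over promoters without a No Dox peak, 7 of 15 members (46.7%, 21.3 to 73.4%) had a Dox peak, against 17.7% of such promoters genome-wide. Promoters that are rich in GC had a Dox peak more often, from 6.13% of those in the lowest quintile of promoter GC content to 38.8% in the highest, and members lie among the rich ones. Weighted by the promoter GC quintiles of the 15 members, the genome-wide share was 27.3%, which lies inside the members' interval, and weighted by quintiles of locus GC content it was 21.6%. These weights were chosen after the data were seen. Over promoters with a No Dox peak, 2 of 29 members (6.90%, 0.846 to 22.8%) lacked a Dox peak, close to the background of 5.9%. Intervals are exact Clopper-Pearson, cover counting error only and treat genes as independent, which neighbouring members are not.

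**Figure D1:**
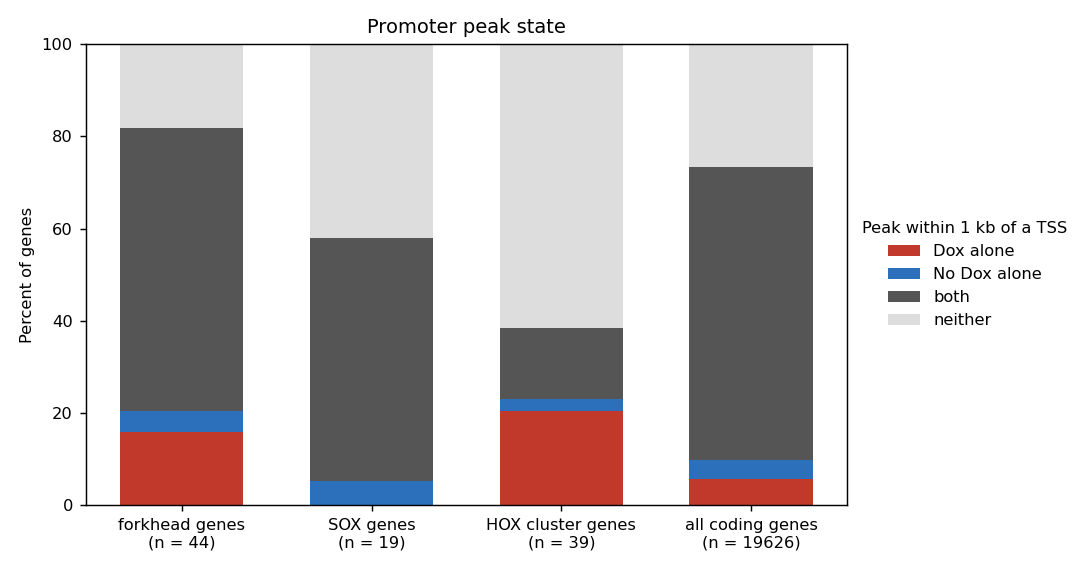
Percent of genes by promoter peak state (y axis) for the 44 forkhead genes, 19 SOX genes, 39 HOX cluster genes and all 19626 coding genes (x axis), stacked by whether a peak lay within 1 kb of a TSS in Dox alone, No Dox alone, both lists or neither. Dox alone took 15.9% of forkhead genes, 0% of SOX genes, 20.5% of HOX genes and 5.75% of all coding genes.

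Set beside 2 other families of developmental transcription factors, the forkhead genes were not uniformly different. Of SOX promoters without a No Dox peak 0 of 8 had a Dox peak (upper limit 36.9%), and of HOX promoters 8 of 32 did (25%, 11.5 to 43.4%). The forkhead interval overlapped both. A median locus GC content of 45.5% for forkhead genes stood between 43.1% for SOX and 49.0% for HOX genes, and its part in these shares was not tested.

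The 7 promoters with a peak in Dox alone belonged to genes of unlike tissues, and most of their peaks were low. FOXH1, the SMAD partner of nodal and activin signalling, had the highest fold, 5.43, in a region of 1532 bp across its TSS, with no No Dox peak within 1 kb. A shared region (5.88 in Dox, 5.72 in No Dox) lay 1.79 kb from that TSS, so that within 3 kb FOXH1 had a peak in both lists. FOXN1, which acts in thymic epithelium and in keratinocyte differentiation, had a fold of 4.52 in Dox at an alternative TSS, 0.895 kb away, and no peak at its canonical TSS in either list, so its call was lost with canonical TSSs alone and within 500 bp. FOXE3 (lens), FOXF1 (lung and gut mesenchyme) and FOXL2 (ovarian granulosa cells) each had a fold of 3.16. FOXJ1, the regulator of motile cilia, had a fold of 2.94, and FOXE1, a thyroid factor, had 2.71, the lowest fold the Dox list contains. The median of the 7 was 3.16, against 3.62 over all 1129 genes with a promoter peak in Dox alone. In No Dox alone, FOXB2 had a fold of 2.54, the lowest in that list, and FOXD3, a neural crest factor, had 3.18. At a q-value of at most 1e-05, 2 of the 7 (FOXH1 and FOXN1) kept a peak in Dox alone and neither FOXB2 nor FOXD3 kept one in No Dox alone. The other 5 and both of these thus stood within a few steps of the lists' own threshold, where a peak missing from the other list is not shown to be absent.

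The 8 members without a promoter peak in either list included FOXB1, FOXD4, FOXL3, FOXR1, FOXR2, FOXS1 and FOXP3, which defines regulatory T cells. FOXD4 has near-identical copies elsewhere in the genome, so the placement of reads there is uncertain. FOXS1 had no promoter peak but a region 2.96 kb away in Dox alone, with a fold of 4.07 and an AP-1 site.

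The 27 promoters with a peak in both lists ranged widely in height. FOXN2 was the highest, with a fold of 25.3 in Dox and 33.9 in No Dox. It was followed by FOXO6 (16.3 in Dox, 19.5 in No Dox), FOXD2 (13.1 in Dox, 16.9 in No Dox) and FOXN3, a repressor of cell cycle genes (11.8 in Dox, 13.8 in No Dox). These are the strongest promoter peaks of each gene. At another TSS of FOXN3 (chr14:89617831-89619677) the fold was 4.97 in Dox and 11.9 in No Dox. FOXO3, a FOXO factor of stress response and longevity, had 9.72 in Dox and 9.32 in No Dox, and FOXA2, an endoderm factor, had 7.91 in Dox and 9.53 in No Dox. The members' median was 6.33 in Dox and 6.57 in No Dox, below the 8.36 in Dox and 8.90 in No Dox of all 12477 genes with a promoter peak in both lists.

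**Figure D2:**
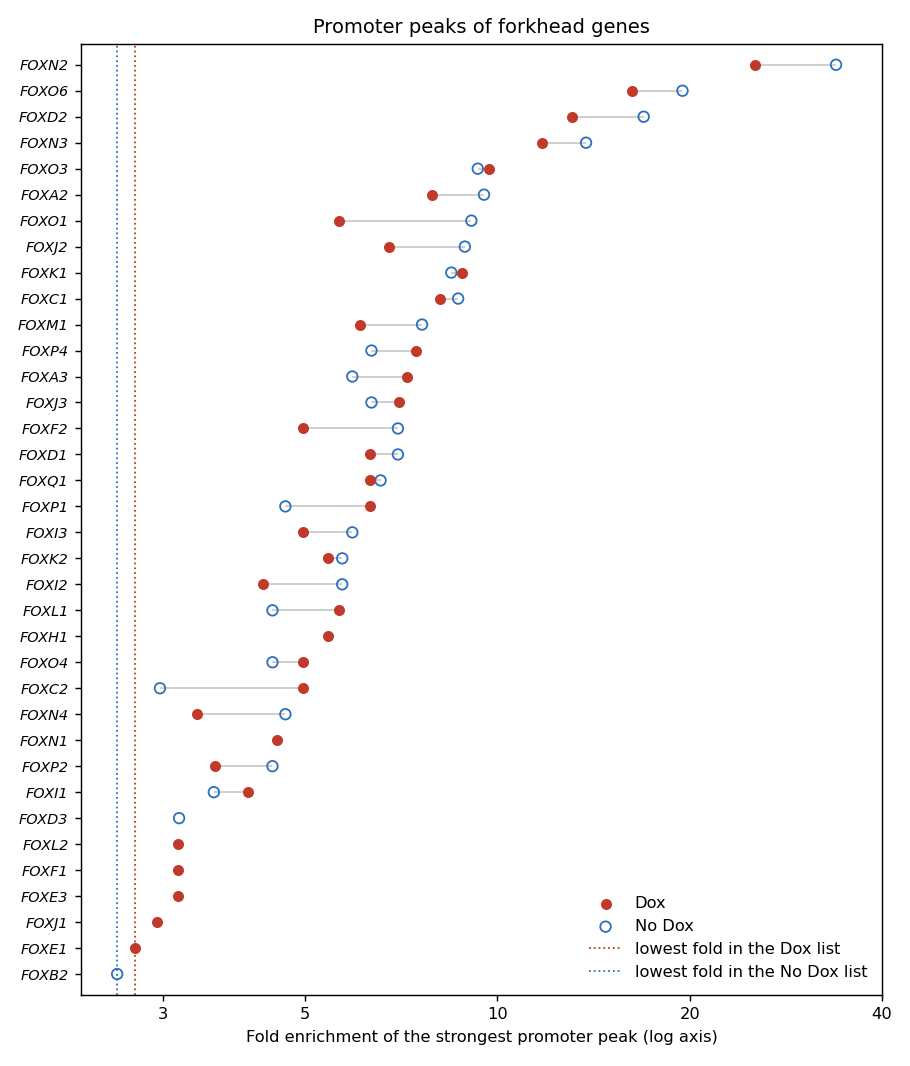
Fold enrichment of the strongest promoter peak (x axis, log scale) of the 36 forkhead genes with one (y axis), as filled points for Dox and open points for No Dox, with the lowest fold of each list as dotted lines. FOXN2 stands highest, FOXC2 and FOXO1 show the widest gaps between the points, and 7 genes have a Dox point alone.

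Because each list has its own background, a ratio between lists was read only against the median log2 ratio of Dox over No Dox of all such promoters, which was -0.11. Past 1.5-fold on this centred scale, 1 of 27 members was higher with Dox, where 7.67% of all promoters were, and 0 of 27 were lower, where 4.67% were. Only the strongest promoter peak of a gene was compared, so the weaker FOXN3 promoter given above, lower with Dox, was not counted. FOXC2, a mesenchymal factor tied to EMT in breast epithelium, was the 1 member past this limit, with a fold of 4.97 in Dox and 2.97 in No Dox (centred log2 0.86). Its No Dox peak was 2 steps above the lowest fold of that list. Just inside the limit stood FOXP1 (6.33 in Dox, 4.66 in No Dox, centred log2 0.55) and FOXL1 (5.65 in Dox, 4.45 in No Dox, centred log2 0.46). Both of these peaks lay at alternative TSSs. The region at the canonical FOXP1 TSS had 4.29 in Dox and 3.81 in No Dox. FOXO1, the insulin-regulated FOXO factor, stood just inside it on the lower side, with a fold of 5.65 in Dox and 9.11 in No Dox (centred log2 -0.58). Within 5 kb of the FOXO1 TSS, however, peaks covered 2627 bp in Dox and 1692 bp in No Dox, so height and covered length ran in opposite directions. Without replicates, none of these gaps could be set against a spread.

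The second readout was the set of regions, each made by merging overlapping peaks of both lists and given to the nearest coding TSS within 100 kb. The members held 321 regions, with 74 in Dox alone (Dox-only), 129 in No Dox alone (No-Dox-only) and 118 in both (shared). No region was given to FOXA3, FOXD4, FOXM1 or FOXR1, since the promoter regions of FOXA3 and FOXM1 lay nearer to a TSS of SYMPK and RHNO1. The Dox-only share of condition-only regions was 36.5% (29.8 to 43.5%), where 42.8% of all 56833 such regions were Dox-only. For strong regions, those whose fold reached their list's median, the counts were 29 Dox-only against 42 No-Dox-only (40.8%, 29.3 to 53.2%), where 39.9% were Dox-only over all genes. FOXP2 alone supplied 41 of the 129 No-Dox-only regions. Without it the counts were 72 Dox-only against 88 No-Dox-only (45.0%, 37.1 to 53.1%), so the total leaned on 1 gene. By gene, 17 members (28.2% of all coding genes did so) had more Dox-only regions, 21 (27.2% of all coding genes) had more No-Dox-only regions, 1 had as many of each, and 5 had none of either. The members had a median of 5 regions each, against 2 over all coding genes, so more of them than of all genes could lean either way.

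**Figure D3:**
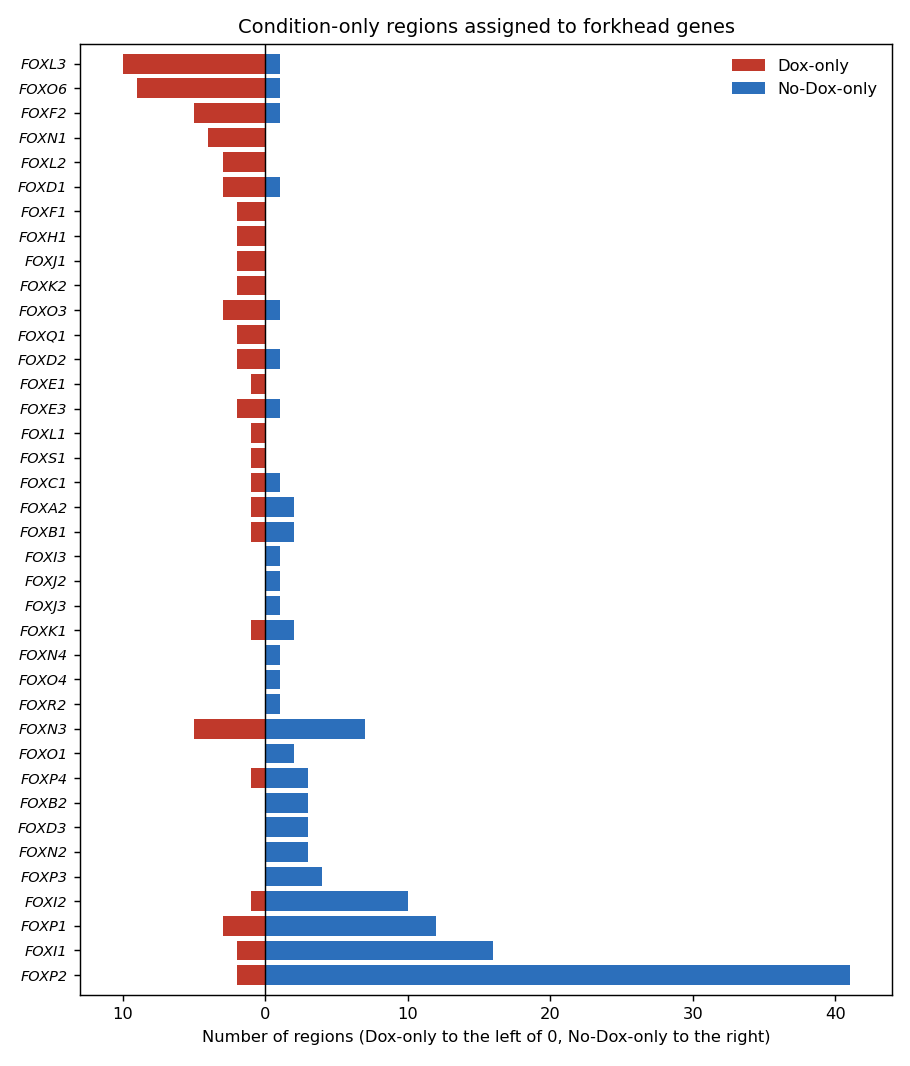
Number of Dox-only regions (bars to the left of 0) and No-Dox-only regions (bars to the right) of 38 of the 39 forkhead genes with at least 1, ordered by the difference, with 1 gene not drawn. FOXL3 and FOXO6 reach 10 and 9 Dox-only regions, and FOXP2 reaches 41 No-Dox-only regions.

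Of the Dox-only regions, 37 of 74 (50%) were intergenic and 25 (33.8%) intronic, and of the No-Dox-only regions 34 of 129 (26.4%) were intergenic and 78 (60.5%) intronic. Without FOXP2, 35 of 72 Dox-only regions (48.6%) were intergenic and 25 (34.7%) intronic, and of the No-Dox-only regions 31 of 88 (35.2%) were intergenic and 41 (46.6%) intronic, so FOXP2 supplied much of the gap between the classes. Over all genes 26% of Dox-only regions were intergenic and 53.7% intronic, and of No-Dox-only regions 29.7% and 60.2% were. Within 1 kb of a TSS lay 10 of the 74 Dox-only regions (13.5%) and 6 of the 129 No-Dox-only regions (4.65%), against 10.7% and 5.73% over all genes. The median distance was 27.8 kb for Dox-only and 27.3 kb for No-Dox-only regions of members, where over all genes it was 15.4 kb for Dox-only and 28.4 kb for No-Dox-only regions.

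Subfamilies leaned in opposite directions. The FOXL genes had 14 Dox-only against 1 No-Dox-only regions, the FOXO genes 12 and 5, and the FOXF genes 7 and 1. The FOXP genes had 6 Dox-only against 60 No-Dox-only regions and the FOXI genes 3 and 27. Over all genes 42.8% of condition-only regions were Dox-only. Among regions of other genes within 1 Mb to each side, the median Dox-only share was 88.2% for FOXL, 78.1% for FOXF and 49.6% for FOXO. It was 33.2% for FOXP and 19.5% for FOXI, and the part of these surroundings was not tested. FOXO3 and FOXO6 had more Dox-only regions, whereas FOXO1 (0 against 2) and FOXO4 (0 against 1) had more No-Dox-only regions. In each of these subfamilies 1 or 2 genes made up most of the count, as follows.

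FOXL3, known in medaka fish for its role in the germline, had 10 Dox-only regions and 1 No-Dox-only region, although its own promoter had no peak in either list. All 10 were intergenic, lay 5.61 to 87.2 kb from the TSS on chromosome 7, and were low, with folds from 2.94 to 4.07. In the 1 Mb to each side of the gene, 94.0% of condition-only regions were Dox-only, so the lean was shared by the surroundings. At a q-value of at most 1e-05 its difference of 9 regions became 2.

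FOXO6, a FOXO factor best known in brain, had 9 Dox-only regions and 1 No-Dox-only region around a promoter that was high in both lists. Their folds were 2.71 to 4.97, and the region of 4.97 held the TEAD site printed above. At a q-value of at most 1e-05 its difference of 8 regions became 1. Of all coding genes, 98.0% had fewer Dox-only regions than FOXO6 and 98.4% had fewer than FOXL3. FOXN1 had 4 Dox-only against 0 No-Dox-only regions, all 4 within the gene and with folds of 3.16 to 4.52. They also overlapped RSKR, so their assignment to FOXN1 rests on distance alone.

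FOXF2, a factor of gut and palate mesenchyme, carried the highest Dox-only region of the family. It lay at chr6:1481027-1481984, 91.5 kb downstream of the FOXF2 TSS in intergenic DNA, with a fold of 14.9 and no peak in the No Dox list. FOXF2 had 5 Dox-only regions, 4 of them strong, and 1 No-Dox-only region, with a fold of 2.97. The other strong Dox-only regions had folds of 5.88, 4.97 and 4.75. At its promoter the fold was 4.97 in Dox and 6.99 in No Dox (centred log2 -0.38, inside the 1.5-fold limit). Within 5 kb of the canonical TSS, peaks covered 1096 bp in Dox and 883 bp in No Dox, so height and covered length ran in opposite directions there too.

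**Figure D4:**
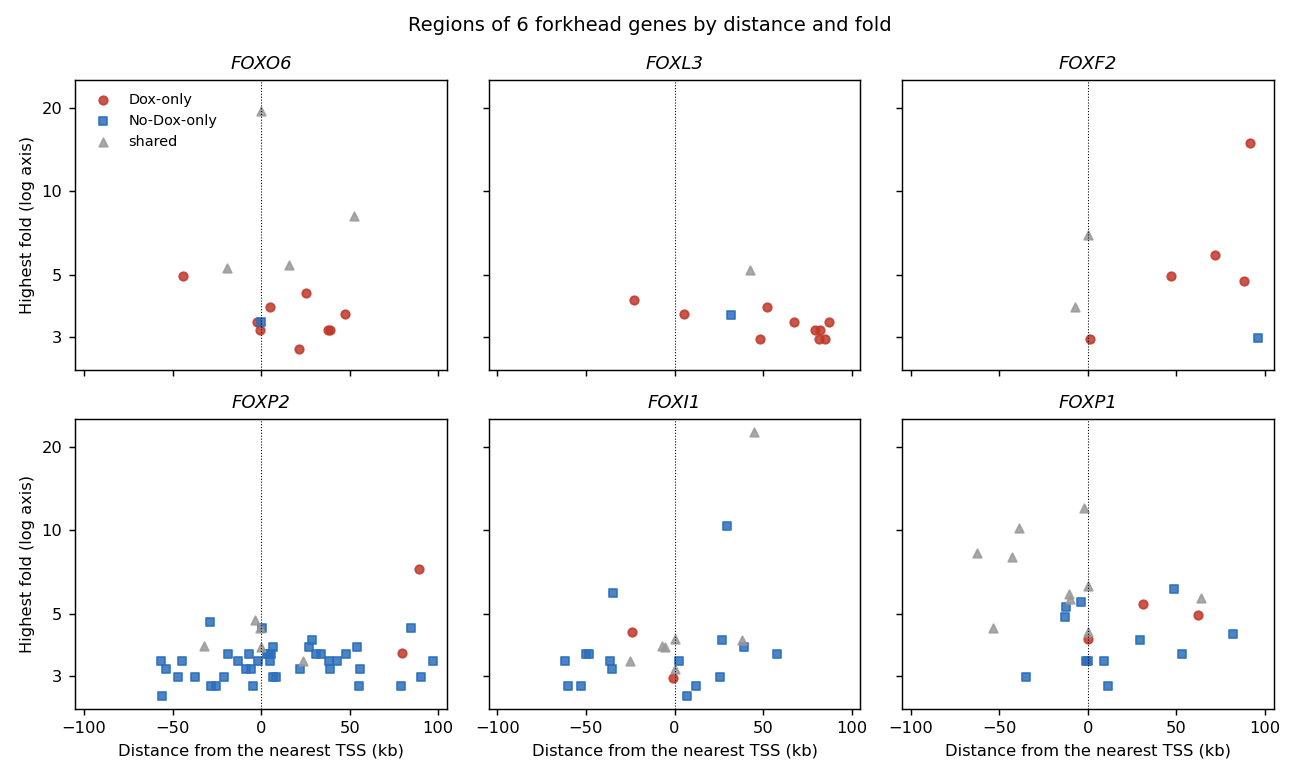
Regions of FOXO6, FOXL3 and FOXF2 (top) and FOXP2, FOXI1 and FOXP1 (bottom) by distance from the nearest TSS in kb (x axis, downstream positive) and the highest fold in either list (y axis, log scale), as circles for Dox-only, squares for No-Dox-only and triangles for shared regions. The FOXF2 panel holds the Dox-only region with a fold of 14.9, and the FOXP2 panel holds 41 low No-Dox-only regions.

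FOXP2, a repressor studied for its part in speech, had 2 Dox-only against 41 No-Dox-only regions, and 99.7% of coding genes had fewer No-Dox-only regions. Of the 41, 38 lay within the gene and 7 were strong. Their folds ran from 2.54 to 4.66 with a median of 3.39, so they were many and low. The difference of -39 became -20 with lists of equal length and -3 at a q-value of at most 1e-05. One of the 2 Dox-only regions (chr7:114720777-114721133, intergenic, 89.1 kb from the nearest FOXP2 TSS) was the second highest Dox-only region of the family, with a fold of 7.23. The gene spans a long stretch of AT-rich DNA, with a locus GC content of 34.8%.

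FOXP1, a partner of FOXP2 that also acts in B cells and lung, had 3 Dox-only against 12 No-Dox-only regions, all within the gene. Its 3 Dox-only regions had folds of 4.07 to 5.43, and its 12 No-Dox-only regions had folds of 2.75 to 6.14. FOXP3 had 0 Dox-only against 4 No-Dox-only regions, and FOXP4 had 1 and 3. All 4 FOXP genes therefore had more No-Dox-only than Dox-only regions. Of the 4 regions of FOXP3, however, only 2 lay within the gene and the rest in exons of the neighbouring CCDC22. The FOXP1 regions also overlapped a coding gene with no symbol, so these assignments rest on the nearest TSS.

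FOXI1, which specifies ionocytes of airway, kidney and inner ear, had 2 Dox-only against 16 No-Dox-only regions. The highest No-Dox-only region of the family lay there, at chr5:170135459-170136583, 29.5 kb downstream of the TSS in intergenic DNA, with a fold of 10.4 in No Dox. The FOXI1 promoter had 4.07 in Dox and 3.60 in No Dox. Of the 16 regions, 8 lay within the neighbouring DOCK2 gene, so they were FOXI1 regions only by the nearest TSS. The difference of -14 became -5 with lists of equal length and -2 at a q-value of at most 1e-05. FOXI2 had 1 Dox-only against 10 No-Dox-only regions with folds no higher than 4.02, and FOXI3, a factor of hair and tooth placodes, had 0 and 1, the 1 with a fold of 6.14.

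FOXN3 had 5 Dox-only against 7 No-Dox-only regions and held strong ones of both kinds, with folds of 6.78 in Dox (68.3 kb upstream of the nearest TSS, in an intron) and 6.99 in No Dox (the region with 2 AP-1 sites above). Its difference of -2 became 2 when the No Dox list was shortened to the length of the Dox list, so no lean was assigned to it. Other regions that ranked among the highest were a Dox-only region near FOXD1, a factor of kidney stroma (5.88), and a No-Dox-only region near FOXJ2 (6.99).

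The forkhead genes include 3 groups that lie side by side in the genome. On 6p25, FOXQ1, FOXF2 and FOXC1 together had 14 shared regions, 8 in Dox alone and 2 in No Dox alone. FOXQ1, linked to EMT in breast cancer cells, had 2 Dox-only regions and no No-Dox-only region, and its promoter had 6.33 in Dox and 6.57 in No Dox. FOXC1, a factor of basal-like breast cancer and of eye and vessel development, had 1 of each, and its promoter had 8.14 in Dox and 8.69 in No Dox. On 16q24, FOXF1, FOXC2 and FOXL1 had 3 shared regions, 3 in Dox alone and 0 in No Dox alone, and the 3 in Dox alone were below the strong limit. On 1p33, FOXE3 and FOXD2 had 4 shared regions, 4 in Dox alone and 2 in No Dox alone. Of condition-only regions over all genes, 42.8% were Dox-only. Among regions within 1 Mb to each side that were not given to the member itself, the median Dox-only share was 66.7% on 6p25, 88.6% on 16q24 and 30.3% on 1p33. The part of the surroundings in these counts was not tested.

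Shared regions over 1 kb from a TSS were compared by fold, centred on their own median log2 ratio over all genes (-0.05). Of 86 such member regions, 11 (12.8%, 6.56 to 21.7%) were more than 1.5-fold higher with Dox, where 11.9% of all were, and 12 (14.0%, 7.42 to 23.1%) were more than 1.5-fold lower, where 11.8% of all were. The family as a whole was thus at the background. Of the 11 higher ones 4 were on 6p25, where none of the 11 such regions was lower. The region 23.2 kb downstream of FOXQ1 (chr6:1335299-1336486) had a fold of 8.82 in Dox and 3.81 in No Dox, and the region 74.1 kb upstream of FOXC1 (chr6:1535308-1535777) had 10.6 in Dox and 5.08 in No Dox. A region 6.16 kb upstream of FOXE3 (chr1:47409143-47410128) had 15.1 in Dox and 6.35 in No Dox, and one 75.9 kb from FOXO3 had 10.2 in Dox and 3.81 in No Dox. In the other direction, FOXN3 had 4 of the 12 lower regions, one of them with 11.5 in Dox and 22 in No Dox, and a region near FOXJ2 had 9.04 in Dox and 17.8 in No Dox. This comparison and these regions were chosen after their values were seen.

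Next, the short sequences were counted in the condition-only regions. A TEAD site lay within 100 bp of the summit in 7 of 74 Dox-only regions (9.46%, 3.89 to 18.5%) and in 4 of 129 No-Dox-only regions (3.10%, 0.851 to 7.75%), where over all genes 12.6% had one in Dox alone and 5.66% in No Dox alone. An AP-1 site lay in 6 Dox-only regions (8.11%, 3.03 to 16.8%) and in 15 No-Dox-only regions (11.6%, 6.66 to 18.5%), where over all genes 7.76% and 13.3% did. The forkhead core was found in 0 of 74 Dox-only regions (upper limit 4.86%) and in 9 of 129 No-Dox-only regions (6.98%, 3.24 to 12.8%), where over all genes 5.06% and 7.50% had it. The intervals of the members' Dox-only regions held the genome-wide share for TEAD and AP-1, and for the forkhead core the genome-wide share lay just above the upper limit. In strong Dox-only regions the core was found in 0 of 29 (upper limit 11.9%), where 6.48% had it over all genes, and over whole peaks it was found in 4.05% of the 74, so the count of 0 is not read as a difference. A match is a match of letters and says nothing of binding.

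**Figure D5:**
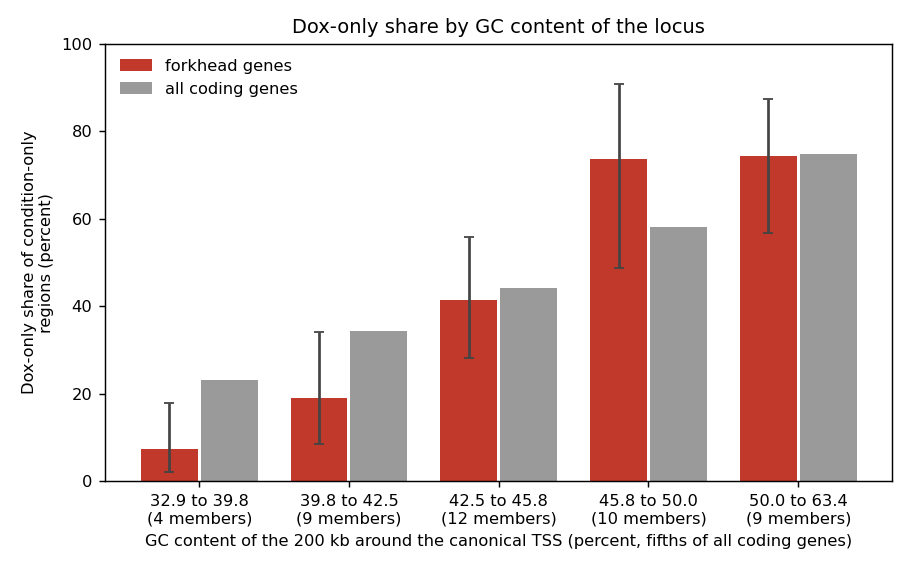
Dox-only share of condition-only regions in percent (y axis) for forkhead genes and for all coding genes, by quintiles of the GC content of the 200 kb around the canonical TSS (x axis, percent, with the number of members), with exact 95% intervals as error bars on the forkhead bars. The share climbs with GC content in both, to 74.3% for forkhead genes and 74.8% for all coding genes in the highest quintile.

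The lean of a member moved with the base composition of its locus. The median locus GC content was 46.9% for the 17 members with more Dox-only regions and 42.0% for the 21 with more No-Dox-only regions. By quintiles of locus GC content from low to high, the Dox-only share of member regions was 7.41, 19.0, 41.5, 73.7 and 74.3%, beside 23.1, 34.4, 44.2, 58.1 and 74.8% for all coding genes. In the lowest quintile and the next one the members' intervals ended at 17.9% and 34.1%, below the genome-wide shares there. FOXP2 alone supplied 41 of the 50 No-Dox-only regions in the lowest quintile. FOXP1 and FOXI2 supplied 12 and 10 of the 34 in the next one. The intervals treat regions of the same gene as independent, so these gaps are not read as a difference of the family. In the other 3 quintiles the members' intervals held the genome-wide share. The surroundings leaned alike: within 1 Mb to each side, the median Dox-only share was 65.2% around the 17 members and 28.3% around the 21, and 12 of the 17 and 16 of the 21 surroundings leaned as the member did. The part of GC content and of the surroundings in the members' counts was not tested.

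Genes that control or follow forkhead factors were taken from lists of their regulators and targets, beside the members. All 18 regulators of FOXO proteins had a promoter peak in both lists, where 63.6% of all coding genes did. On the centred scale 2 of them were past 1.5-fold higher, the acetyltransferase CREBBP included (6.78 in Dox, 4.87 in No Dox). Another 2 were past it on the lower side, the deubiquitinase USP7 included (8.14 in Dox, 13.3 in No Dox).

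Among FOXO targets 18 of 20 had a promoter peak in both lists, and PIK3IP1 and TRIM63 had none. The cell cycle inhibitor CDKN1A was past 1.5-fold higher (6.10 in Dox, 4.24 in No Dox) and the mitochondrial superoxide dismutase SOD2 was past it on the lower side (13.6 in Dox, 22 in No Dox). SOD2 also had 0 Dox-only against 9 No-Dox-only regions.

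Among FOXM1 targets 14 of 16 had a promoter peak in both lists, BIRC5 had one in Dox alone (3.84) and AURKB had none. CDC25B was past 1.5-fold higher (7.91 in Dox, 4.66 in No Dox) and SKP2 was past it on the lower side (9.49 in Dox, 17.8 in No Dox). FOXM1 itself had 6.10 in Dox and 7.63 in No Dox at its promoter and no region of its own, as given above. In each of the 3 lists, genes past the limit numbered as many higher as lower, 2 and 2 for the regulators and 1 and 1 for each target list. The shares each way were 11.1% for the regulators, 5.56% for FOXO targets and 7.14% for FOXM1 targets. Over all promoters with a peak in both lists 7.67% were higher and 4.67% lower. With so few genes, no difference from that background is read.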

How the data were processed

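ATAC-seq was measured in 4 samples, 2 per condition. The authors' pipeline used BWA on hg38 and MACS2 with an FDR limit of 0.05, run on the 2 pooled replicates of a condition (versions not given in the sources used here). The deposited fold enrichment of each peak is a ratio to the background of its list, in steps of 0.226 for Dox and 0.212 for No Dox, with a lowest value of 12 steps. The deposited −log10 q-value was used for stricter lists, the deposited summit offset (another unit, bp) for motif windows, and the deposited score column was not used. No read counts were given, and the study's methods state an average depth but none per condition, so the depth of each list is unknown here.

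Peaks on chromosomes 1 to 22 and X were merged where they overlapped and given to the nearest TSS of a protein-coding transcript (GENCODE 44) within 100 kb, and a promoter peak had a base within 1 kb. Strong means at or above the list's median fold. No test was made, and intervals are Clopper-Pearson at 95%. The steps were checked on simulated, widely spaced genes with a single TSS and a single region each, where 100% of 3000 regions were placed correctly. Alternative TSSs, shared promoters and overlapping genes were not part of that check. RefSeq promoters matched 33 of 44 members. The members, lists and rules were chosen with earlier results of these data known. The rule named members whose promoter state differed, the 5 with most regions of each class, the 5 highest promoters in each list, members past 1.5-fold, the 3 gene clusters and the 5 highest condition-only regions per direction. Other genes were named for context. Values of some genes that these rules or lists name are not reported here. Alternatives were q-values of 0.01 and 1e-05, equal list lengths, promoter windows of 500 bp and 3 kb, other TSS sets, strong regions, an overlap of 50%, merging within 200 bp, a TSS within 20 kb, the nearest gene of any type, a promoter change of 2-fold, a fold of at least 8, ranks, and motif windows of 50 bp and the whole peak. Leaving out FOXP2, leaving out chromosomes 1, 5 and 8, weighting by GC quintile and the comparison of shared regions were chosen after the data were seen. Computations used Python 3.11.15, numpy 2.4.6, pandas 2.3.3, scipy 1.17.1, pysam 0.24.0, samtools 1.23.1 and matplotlib 3.10.9.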

Additional observations from a re-analysis of the deposited data

How the results depend on the processing

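No paired analysis was possible because the authors pooled the replicates of each condition before calling peaks, so no replicate could be left out either. With q-values of at most 0.01, 1 member had a promoter peak in No Dox alone. With 1e-05, 4 had one in Dox alone (9.09%, against 5.22% of all coding genes) and 15 in neither list. Of these 4, only 2 were among the 7 of the main setting, and FOXC2 and FOXI1 joined them. At this limit regions numbered 40 Dox-only against 43 No-Dox-only (48.2%, against 46.8% over all genes). With lists of equal length, 8 members (18.2%, against 7.31% of all) had a promoter peak in Dox alone, 1 had one in No Dox alone, and 85 regions were No-Dox-only (Dox-only share 50%, against 57.7% over all genes). A window of 500 bp left 4 members with a Dox peak alone, for which no share over all genes was computed. A window of 3 kb gave 7 with a Dox peak alone (15.9%, against 6.15% of all) and 5 in neither list. Only 6 of these 7 had that state in the main setting, since FOXH1 lost it and another member gained it. Strong regions were 29 Dox-only against 42 No-Dox-only, and regions with a fold of at least 8 were 1 and 1 (50%). A TSS within 20 kb gave 32 Dox-only against 55 No-Dox-only regions (Dox-only share 36.8%, against 51.3% over all genes). The nearest gene of any type gave 32 and 75, where 34.5% of such regions were Dox-only over all genes of any type. A fold of 2 left 0 members higher with Dox, and a rank difference of 25 percentile points gave 0 higher and 1 lower, FOXO1. The forkhead core in No-Dox-only regions took 3.10% within 50 bp and 17.8% over the whole peak, where TEAD took 23% of Dox-only regions against 9.30% of No-Dox-only ones. No share over all genes was computed for these motif windows. In strong regions AP-1 took 17.2% of Dox-only and TEAD 9.52% of No-Dox-only regions, against 13.4% and 5.71% over all genes. TEAD took 17.2% of strong Dox-only and AP-1 16.7% of strong No-Dox-only regions, below the 24.4% and 23.9% over all genes. The members' intervals held the share over all genes in each of these cases. Without FOXP2 the Dox-only share was 45.0%, and without chromosomes 1, 5 and 8, 1 member had a promoter peak in No Dox alone. The FOXN3 difference, -2, reversed to 2 with equal lengths and to 1 with the nearest gene of any type. The cause was not tested. Of the summary values tried, 61 stayed within the limits set, 1.5 times for a count and the 95% interval for a share. Depth and replicate spread are unknown, so differences near the lists' lowest folds cannot be judged.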

Other observations

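Among 14 long non-coding RNA genes named after or lying beside a forkhead gene, 5 had a promoter peak in both lists, 0 had one in Dox alone, 2 had one in No Dox alone and 7 had none. Of all 18756 lncRNA genes 26.3% had one in both lists, 4.72% in Dox alone, 6.16% in No Dox alone and 62.8% in neither. FOXD3-AS1 had a fold of 3.18 in No Dox alone, the peak that FOXD3 also had, and FOXD1-AS1 had 4.87 in No Dox alone while FOXD1 itself had a peak in both lists (6.33 in Dox, 6.99 in No Dox). FOXC2-AS1 carried the same values as FOXC2 (4.97 in Dox, 2.97 in No Dox). FENDRR, which lies beside FOXF1, had no promoter peak in either list. FOXCUT, beside FOXC1, had 3.84 in Dox and 3.39 in No Dox.

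In the RefSeq promoters (250 bases before the start and 50 after it) the TEAD words were found in 2 of the 33 matched members, FOXJ3 and FOXO3, the AP-1 word in 1, FOXO3, and the forkhead words in 3, FOXO3, FOXO4 and FOXP1. Over 34796 distinct promoters of the same length, 6.64% held a TEAD word, 4.96% the AP-1 word and 7.45% a forkhead word. These shares count promoters, whereas a member was counted if any of its promoters held the word, so the scales differ. Of the members with a Dox peak alone, 3 were matched, with 12 to 32 CpG in those bases, against 1 to 35 for the 6 matched members with no promoter peak.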
